A study of Mus musculus with 24 samples.

Results

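The genes described here are 39 mouse genes of the interferon response and of antigen presentation: 18 interferon-induced genes, 2 RNA sensors, 5 transcription factors of the interferon pathway, 9 genes of MHC class I presentation and 5 genes of MHC class II presentation. They were chosen by name, and each was represented by the probe set annotated to it alone, or by the one with the highest mean where there were several. Of the 39 genes, 35 had such a probe set among the 41345 probe sets measured. *Oas1a*, *Gbp2* and *H2-D1* shared theirs with the related genes *Oas1g*, *Gbp2b* and *H2-Q2*, and are not given a value, and *Ifi44* was not analysed here. Levels were compared between 6 *G-Smo* and 6 *M-Smo* medulloblastomas, taken from untreated mice at postnatal day 15 and measured on 1 Affymetrix array each. The mice had been crossed into the C57BL/6 background for 5 or more generations. Every mouse carried *SmoM2*, an oncogenic allele of the SHH pathway receptor component *Smo*. In *G-Smo* mice *hGFAP-Cre* switches the allele on in neural stem cells, from which most cells of the brain derive, and in *M-Smo* mice *Math1-Cre* switches it on in committed granule neuron progenitors. A tumor sample was a whole dissected piece, so stroma, vessels and immune cells contributed RNA, and fewer cells of a type cannot be told apart from less RNA per cell. The 12 irradiated arrays of the series hold no value for any of these genes and were not used.

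Interferons are secreted signals that cells release on sensing viral or misplaced nucleic acid. Type I interferons act through the IFNAR receptor and the kinases JAK1 and TYK2 on a complex that holds STAT2 and IRF9 and binds the interferon-stimulated response element (ISRE), which switches on antiviral genes such as *Ifit1*, *Isg15* and *Mx1*. Interferon gamma acts on the gamma-activated site (GAS), and induces *Irf1*, *Ciita* and the genes of antigen presentation. MHC class I, made of a heavy chain such as H2-K and the light chain B2M, displays peptides that the immunoproteasome cuts and the TAP transporter brings into the endoplasmic reticulum, and its genes are driven by NLRC5. MHC class II, driven by CIITA, is displayed mainly by macrophages, dendritic cells and B cells. In the brain, resting microglia carry little of it, whereas macrophages of the meninges and perivascular spaces include class II-positive cells.

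The promoters were searched for the elements that both pathways read, and 10 windows of 80 bases before the start are printed to show the matches in genes whose values follow. RefSeq promoters (build GRCm38.p6, 250 bases before to 50 after the start) were given for 30 of the 39 genes, 37 promoters in all. Capitals mark an ISRE core (GAAA, a pair of any bases and GAAA, on either strand) in the first 5, a GAS (TTCNNNGAA, its own reverse complement) in the next 3 and the Y box core of MHC promoters (CTGATTGG, either strand) in the last pair.
*Ifit1*, chr19:34640759-34640838, plus strand: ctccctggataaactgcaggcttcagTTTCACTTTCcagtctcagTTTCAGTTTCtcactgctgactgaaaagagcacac
*Ifit3*, chr19:34583355-34583434, plus strand: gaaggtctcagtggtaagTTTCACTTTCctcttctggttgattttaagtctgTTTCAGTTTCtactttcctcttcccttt
*Isg15*, chr4:156200846-156200925, minus strand: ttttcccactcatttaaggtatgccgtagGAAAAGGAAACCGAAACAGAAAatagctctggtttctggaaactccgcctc
*Bst2*, chr8:71537555-71537634, minus strand: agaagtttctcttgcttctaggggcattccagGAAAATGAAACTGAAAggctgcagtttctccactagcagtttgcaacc
*B2m*, chr2:122147513-122147592, plus strand: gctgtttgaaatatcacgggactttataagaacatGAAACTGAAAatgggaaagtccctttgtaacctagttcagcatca
*Irf1*, chr11:53769888-53769967, plus strand: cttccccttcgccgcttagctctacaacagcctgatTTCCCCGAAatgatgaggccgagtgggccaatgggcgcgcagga
*Irf8*, chr8:120736160-120736239, plus strand: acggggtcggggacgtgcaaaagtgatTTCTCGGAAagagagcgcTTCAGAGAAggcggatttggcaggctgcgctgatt
*Psmb8*, chr17:34198062-34198141, plus strand: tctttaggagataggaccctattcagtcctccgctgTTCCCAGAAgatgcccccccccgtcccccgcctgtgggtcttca
*H2-Aa*, chr17:34287831-34287910, minus strand: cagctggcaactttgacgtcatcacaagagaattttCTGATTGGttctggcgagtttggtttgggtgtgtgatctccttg
*H2-Eb1*, chr17:34305769-34305848, plus strand: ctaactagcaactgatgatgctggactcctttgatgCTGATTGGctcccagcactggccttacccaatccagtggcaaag

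An ISRE core stood in 12 of the 37 promoters (32.4%), against 3.44% of 32851 mouse promoters of the same length. It was in 8 of 15 promoters of interferon-induced genes and in both promoters of RNA sensors, in 1 of 8 of MHC class I genes and in 0 of 4 of MHC class II genes. In *Isg15* 3 cores overlapped each other, and *Ifit1* and *Ifit3* had 2 separate cores each. A GAS was found in 7 promoters (18.9%, against 8.3% of all). The Y box core was found in 8 promoters (21.6%, against 4.1% of all), 5 of them of class I genes and 2 of class II genes. The 8 promoters belonged to 7 genes, as *H2-K1* had 2 of them. These are matches of letters in a fixed window, and binding was not measured.

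Levels are RMA log2 intensities, in which a difference of 1 is 2-fold, and probe sets respond unequally to RNA, so levels are compared only between tumors. The mean over 12 tumors ran from 3.88 to 7.77 in the 15 interferon-induced genes measured, from 5.16 to 12.32 in the 8 class I genes and from 4.69 to 6.76 in the 5 class II genes. In 14 of the 35 genes it lay under 5.73, the 40th percentile of all probe sets, and is called dim here. Those 14 were 8 interferon-induced genes, 3 of class I (*Psmb8*, *Psmb9* and *Nlrc5*), 2 of class II (*H2-Aa* and *H2-Eb1*) and *Irf7*.

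None of the 35 genes passed limma's test of *G-Smo* against *M-Smo* tumors at an adjusted p of 0.05, where 2.56% of all 41345 probe sets did and 2.95% of those with 1 gene symbol. The 6 *G-Smo* and the 6 *M-Smo* values overlapped in each of the 35 genes, whereas 3.46% of all probe sets showed no overlap. The log2 differences, *G-Smo* minus *M-Smo*, ran from -0.36 (*Ifi27*) to 0.32 (*Ifit2*), with a median of -0.07 against 0.00 over all probe sets. That median was -0.13 without *M-Smo* replicate 1 and -0.04 without *M-Smo* replicate 3. At an unadjusted p under 0.05 there were 11 genes (31.4%, against 18.9% of all probe sets), 4 with higher means in *G-Smo* tumors (10.2% of all probe sets) and 7 with lower (8.65% of all). The methods' unmoderated test gave 0 adjusted calls and 10 genes at an unadjusted p under 0.05. The 95% intervals of the 35 differences reached down to -0.67 and up to 0.50 at the extremes, with a median half-width of 0.20. They are intervals of the log2 intensity, which in dim probe sets can understate a difference in RNA.

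The count of 11 was 7 without *G-Smo* replicate 5 (20%, against 15.6% of all probe sets) and also 7 without *G-Smo* replicate 6 (20%, against 16.5%), shares nearer to those of all probe sets. Sex is not given for the mice, and a high level of *Xist* was found in 5 of 6 *G-Smo* and 2 of 6 *M-Smo* tumors. The 5 left out *G-Smo* replicate 6, and the 2 were *M-Smo* replicates 1 and 6. When the fit held a sex-linked score (*Xist* minus the mean of Y-linked genes), 3 genes had an unadjusted p under 0.05 (8.57%, against 16.3% of all probe sets), and they were *Ifit2*, *Irf9* and *H2-DMa*. The median difference of the 35 genes was then -0.06, against -0.07 without the score. It was -0.06 against -0.11 in interferon-induced genes and -0.19 against -0.18 in class II genes. Sex and genotype are partly confounded here, and the cause of the lower count was not tested.

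**Figure D1:**
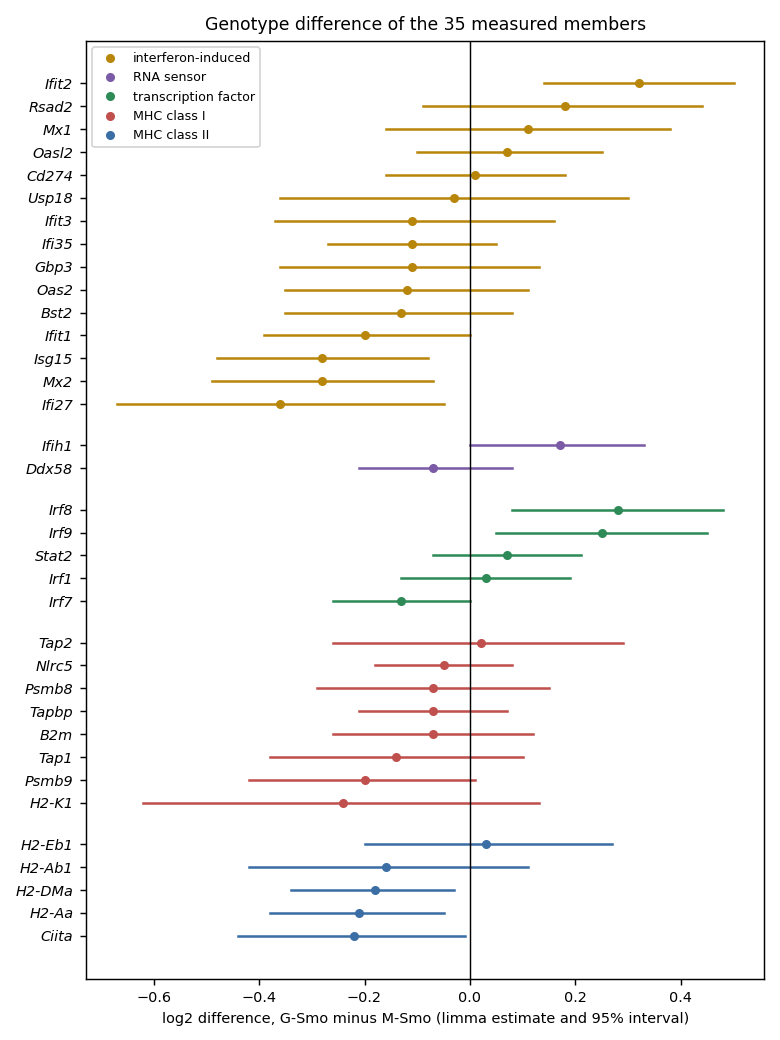
Log2 difference, *G-Smo* minus *M-Smo*, of the 35 measured genes, with limma's 95% interval, grouped by class (colors). The points lie between -0.36 and 0.32. Of them 23 are below 0 and 12 above, and 7 of 8 class I genes and 4 of 5 class II genes are below 0.

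In the interferon-induced class, 10 of 15 differences were negative, with a median of -0.11, and none passed the test with the probe set used. *Ifit2*, a member of the IFIT family of RNA-binding antiviral proteins, came closest. Its log2 level was 7.80 at the lowest, 7.92 at the median and 8.13 at the highest in *G-Smo* tumors, against 7.37, 7.64 and 7.86 in *M-Smo* tumors. The groups met only at their edges, with the highest *M-Smo* tumor above the lowest *G-Smo* tumor. The difference was 0.32 ± 0.08 (SE, n = 6 each, adjusted p = 0.0664), and the exact permutation p was 0.00649. The call was made without *M-Smo* replicate 4 (adjusted p = 0.0427), and also when the test was limited to probe sets of a single gene symbol (adjusted p = 0.0416) or to brighter ones (adjusted p = 0.0357).

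*Ifit1*, which binds viral RNA lacking the host's cap methylation, ran the other way. It lay at 5.63, 5.87 and 6.00 in *G-Smo* tumors, against 5.76, 6.04 and 6.33 in *M-Smo* tumors, and differed by -0.20 ± 0.09 (SE, adjusted p = 0.256). *Ifit3*, the third neighbor in the *Ifit* cluster of chromosome 19, differed by -0.11 ± 0.12 (SE, adjusted p = 0.684). The 3 neighboring genes thus had estimates of both signs, and the opposite estimate of *Ifit2* was not tested against the others.

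*Isg15*, a ubiquitin-like protein conjugated to other proteins during the response, had levels of 4.41, 4.77 and 4.90 in *G-Smo* tumors, against 4.80, 5.04 and 5.17 in *M-Smo* tumors. The difference was -0.28 ± 0.09 (SE, adjusted p = 0.123), and the probe set was one of the 14 under the 40th percentile. *Usp18*, the protease that removes ISG15, differed by -0.03 ± 0.15 (adjusted p = 0.941). It had an SD of 0.13 in *G-Smo* tumors and 0.39 in *M-Smo* tumors.

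A pair of further genes in this class was named for an unadjusted p under 0.05, after the values had been seen. *Mx2*, a dynamin-like GTPase, was at 4.67, 4.73 and 5.14 in *G-Smo* tumors and at 4.87, 5.09 and 5.29 in *M-Smo* tumors, a difference of -0.28 ± 0.10 (SE, adjusted p = 0.137). It passed only without *G-Smo* replicate 1, the highest of its group (adjusted p = 0.0482). *Mx1* and *Mx2* are listed as transcribed pseudogenes in the RefSeq annotation used here. *Ifi27*, a small membrane protein gene, had the most negative estimate of the class, at 6.02, 6.21 and 6.30 in *G-Smo* tumors and 5.97, 6.54 and 6.97 in *M-Smo* tumors. Its difference was -0.36 ± 0.14 (SE, adjusted p = 0.194), and the *M-Smo* tumors enclosed the whole range of the *G-Smo* tumors.

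The remaining interferon-induced genes were *Oasl2*, *Oas2*, *Mx1*, *Rsad2*, *Bst2*, *Ifi35*, *Gbp3* and *Cd274*. Their differences lay between -0.13 (*Bst2*, the tetherin that holds budding virions) and 0.18 (*Rsad2*, viperin), with adjusted p of 0.466 or more. *Cd274*, which encodes the checkpoint ligand PD-L1, averaged 5.53 ± 0.08 in *G-Smo* tumors and 5.52 ± 0.17 in *M-Smo* tumors (SD, n = 6 each). *Ifi35* had a second, dimmer probe set, which differed by 0.27 and passed the threshold (adjusted p = 0.046). The one used differed by -0.11, so that the direction and the call for this gene depend on the probe set.

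**Figure D2:**
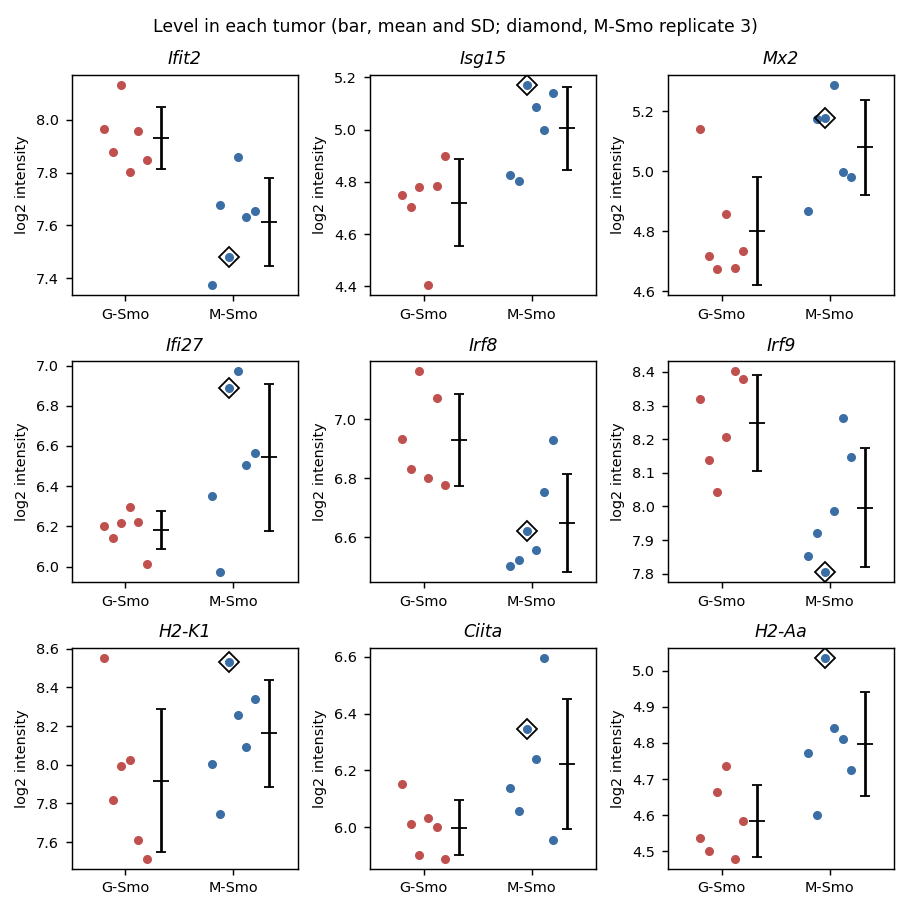
Log2 intensity of 9 genes in each tumor, *G-Smo* left and *M-Smo* right (points are tumors, bars the mean and SD with n = 6 each, and the open diamond is *M-Smo* replicate 3). The 6 tumors of each genotype overlap in each panel. *Ifit2* spans 7.80 to 8.13 in *G-Smo* and 7.37 to 7.86 in *M-Smo* tumors.

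Neither RNA sensor passed the test. *Ifih1*, which encodes MDA5, lay at 6.53, 6.72 and 6.85 in *G-Smo* tumors, against 6.35, 6.54 and 6.76 in *M-Smo* tumors, and differed by 0.17 ± 0.08 (SE, adjusted p = 0.257). *Ddx58*, which encodes RIG-I, lay at 7.00, 7.05 and 7.17 in *G-Smo* tumors and at 6.93, 7.14 and 7.30 in *M-Smo* tumors, a difference of -0.07 ± 0.07 (SE, adjusted p = 0.636). The ranges of *Ddx58* were nested, with the *M-Smo* tumors the wider.

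Of the 5 transcription factors, 4 had positive estimates and *Irf7* a negative one, and none passed. *Irf8*, needed for microglia and other myeloid cells, lay at 6.78, 6.88 and 7.16 in *G-Smo* tumors, against 6.50, 6.59 and 6.93 in *M-Smo* tumors. The difference was 0.28 ± 0.09 (SE, adjusted p = 0.124), and a second, dimmer *Irf8* probe set differed by -0.09 (adjusted p = 0.523). *Irf9*, the DNA-binding subunit of the complex that reads the ISRE, lay at 8.04, 8.26 and 8.40 in *G-Smo* tumors and at 7.81, 7.95 and 8.26 in *M-Smo* tumors, a difference of 0.25 ± 0.09 (SE, adjusted p = 0.16). Its partner *Stat2* lay at 8.16, 8.30 and 8.40 in *G-Smo* tumors and at 8.09, 8.25 and 8.37 in *M-Smo* tumors, a difference of 0.07 ± 0.06 (SE, adjusted p = 0.605). *Irf7*, the factor that amplifies type I interferon production, lay at 5.40, 5.50 and 5.62 in *G-Smo* tumors and at 5.55, 5.60 and 5.82 in *M-Smo* tumors, a difference of -0.13 ± 0.06 (SE, adjusted p = 0.278). *Irf1* differed by 0.03 ± 0.07 (SE, adjusted p = 0.852).

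MHC class I genes showed no genotype difference that passed the test, and 0 of the 8 reached an unadjusted p under 0.05. Their median difference was -0.07, and 7 of 8 estimates were negative, where 49% of all probe sets were. *B2m*, the shared light chain, lay at 12.06, 12.30 and 12.54 in *G-Smo* tumors, against 12.24, 12.36 and 12.46 in *M-Smo* tumors, a difference of -0.07 ± 0.09 (SE, adjusted p = 0.72). The heavy chain gene *H2-K1* lay at 7.51, 7.90 and 8.55 in *G-Smo* tumors and at 7.74, 8.17 and 8.53 in *M-Smo* tumors. It had the widest interval of the class, -0.62 to 0.13, around a difference of -0.24 ± 0.17 (SE, adjusted p = 0.479). *Nlrc5*, the class I transactivator, lay at 5.00, 5.17 and 5.22 in *G-Smo* tumors and at 5.10, 5.16 and 5.35 in *M-Smo* tumors, a difference of -0.05 ± 0.06 (SE, adjusted p = 0.729).

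The processing genes of class I include the immunoproteasome subunits *Psmb8* and *Psmb9* and the transporter subunits *Tap1* and *Tap2*, which lie next to each other in the MHC. *Psmb9* lay at 5.15, 5.51 and 5.72 in *G-Smo* tumors, against 5.50, 5.66 and 5.90 in *M-Smo* tumors, a difference of -0.20 ± 0.10 (SE, adjusted p = 0.291). *Psmb8*, *Tap1* and *Tap2* differed by -0.07, -0.14 and 0.02, with adjusted p of 0.53 or more. *Tapbp*, which encodes the tapasin that loads peptide, differed by -0.07 (adjusted p = 0.6). *Psmb8* had an SD of 0.04 in *G-Smo* tumors and 0.26 in *M-Smo* tumors.

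The class II genes had a median difference of -0.18, and none of the 5 passed. *H2-Aa*, the alpha chain of the I-A molecule, lay at 4.48, 4.56 and 4.74 in *G-Smo* tumors, against 4.60, 4.79 and 5.03 in *M-Smo* tumors, a difference of -0.21 ± 0.07 (SE, adjusted p = 0.146). *H2-DMa*, whose product loads peptides onto class II, lay at 6.50, 6.64 and 6.84 in *G-Smo* tumors and at 6.64, 6.88 and 6.92 in *M-Smo* tumors, a difference of -0.18 ± 0.07 (SE, adjusted p = 0.189). *Ciita*, the class II transactivator, lay at 5.89, 6.01 and 6.15 in *G-Smo* tumors and at 5.95, 6.19 and 6.60 in *M-Smo* tumors, a difference of -0.22 ± 0.10 (SE, adjusted p = 0.242). In each of these genes the median *G-Smo* tumor was below the median *M-Smo* tumor while the ranges overlapped. The beta chain genes *H2-Ab1* and *H2-Eb1* differed by -0.16 ± 0.12 and 0.03 ± 0.11 (SE, adjusted p = 0.532 and 0.905). The invariant chain gene *Cd74* had no probe set of its own and was not analysed here.

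Some macrophage markers also differed between genotypes, in lists that were chosen with earlier results of these data known. Of 7 markers of border-associated macrophages, which lie in the meninges and perivascular spaces, *Lyve1*, *Mrc1* and *Pf4* were lower in *G-Smo* tumors (where 1.29% of all probe sets were), with differences of -0.91 ± 0.11, -0.71 ± 0.11 and -0.53 ± 0.08 (SE, adjusted p = 0.00149, 0.00874 and 0.0101). The 4 others did not pass, and all 7 estimates were negative. *Cbr2* and *F13a1* differed by -0.48 ± 0.15 and -0.39 ± 0.11 (SE, adjusted p = 0.105 and 0.0958), and *Ms4a7* by -0.07 ± 0.13 (SE, adjusted p = 0.801). *Cd163* averaged 5.08 ± 0.16 in *G-Smo* and 5.18 ± 0.09 in *M-Smo* tumors (SD). The mean of the 7 markers ran from 5.91 to 6.21 in *G-Smo* tumors, against 6.38 to 6.65 in *M-Smo* tumors, with no overlap. Among 8 fibroblast and meningeal markers 7 were lower in *G-Smo* tumors, including *Dcn* with a difference of -0.79 ± 0.11 (SE, adjusted p = 0.00399) and *Slc6a13* with -1.08 ± 0.11 (SE, adjusted p = 0.000377). The call of *Slc13a4*, one of the 7 (-1.20 ± 0.27, SE, adjusted p = 0.04), was lost with the methods' test (adjusted p = 0.0692), with the sex-linked score (adjusted p = 0.0966) and when any one of 9 tumors was left out, all but *G-Smo* replicate 4 and *M-Smo* replicates 2 and 5 (adjusted p = 0.0536 to 0.0873). *Col1a2* (adjusted p = 0.0203) was lost without *G-Smo* replicate 6 (adjusted p = 0.0502). The endothelial marker *Cdh5* was lower as well, with a difference of -0.33 ± 0.06 (SE, adjusted p = 0.0137). The other 10 endothelial markers did not pass, and 9 of the 11 estimates were negative. Of 10 markers of the tumor's granule lineage, 8 estimates were positive and 2 negative, and only *Hhip* passed. It was higher in *G-Smo* tumors, by 0.41 ± 0.07 (SE, adjusted p = 0.0141), and its call was lost with the sex-linked score (adjusted p = 0.0622).

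By contrast, none of 14 microglia markers passed, and their mean ran from 7.69 to 8.07 in *G-Smo* tumors and from 7.70 to 7.98 in *M-Smo* tumors. The microglia estimates were of both signs, 8 positive and 6 negative, with a median of 0.02. *Tmem119* averaged 6.63 ± 0.10 in *G-Smo* and 6.82 ± 0.20 in *M-Smo* tumors, and *P2ry12* averaged 8.20 ± 0.24 in *G-Smo* and 8.41 ± 0.07 in *M-Smo* tumors (SD, n = 6 each). At the other end, *Fcrls* averaged 9.06 ± 0.16 in *G-Smo* and 8.83 ± 0.20 in *M-Smo* tumors, and *Aif1* averaged 7.20 ± 0.13 and 6.97 ± 0.27 (SD). None of 8 monocyte and dendritic cell markers passed, with *Ccr2* at 4.32 ± 0.24 in *G-Smo* and 4.35 ± 0.22 in *M-Smo* tumors (SD). Of these 8 markers 4 were dim, *Ccr2* among them, and the estimates were 5 negative and 3 positive. The brighter *Itgax* differed by 0.31 ± 0.14 (SE, adjusted p = 0.267). None of 10 lymphocyte markers passed either, with *Cd3e* at 4.62 ± 0.16 in *G-Smo* and 4.71 ± 0.06 in *M-Smo* tumors (SD). Of the 10, 8 were dim, *Cd3e* among them. In dim probe sets a difference in RNA can be understated. The means of the 5 class II genes, 5.52 to 5.73 in *G-Smo* and 5.62 to 5.90 in *M-Smo* tumors, overlapped. The part of the macrophage and meningeal markers in the class II estimates was not tested.

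**Figure D3:**
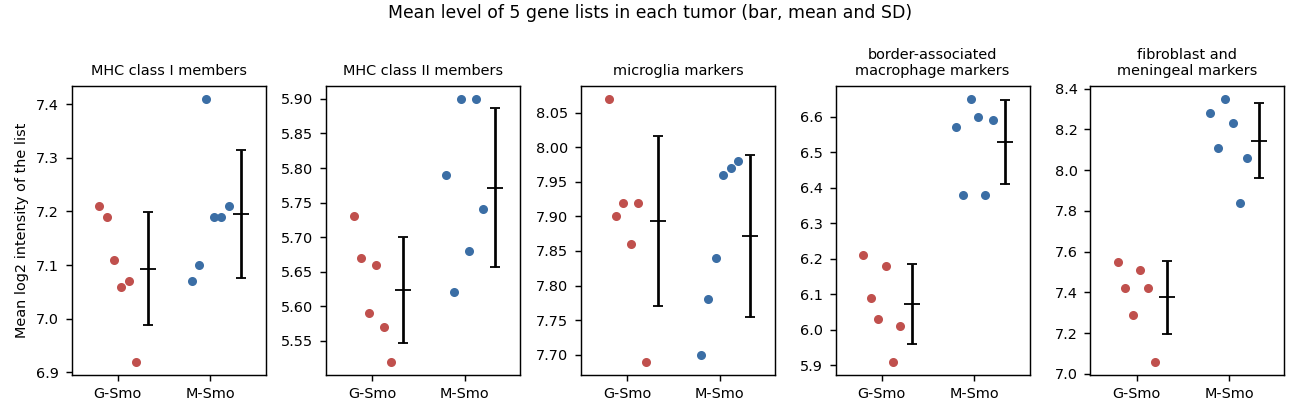
Mean log2 intensity of 5 gene lists in each tumor, *G-Smo* left and *M-Smo* right (points are tumors, bars the mean and SD with n = 6 each). The class I, class II and microglia lists overlap between genotypes, while border-associated macrophage markers (5.91 to 6.21 in *G-Smo*, 6.38 to 6.65 in *M-Smo*) and fibroblast and meningeal markers (7.06 to 7.55 in *G-Smo*, 7.84 to 8.35 in *M-Smo*) do not.

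Beyond the 39 genes, 81 of 87 further genes of the pathway had a probe set of their own, and 1 passed. *Gbp7*, a guanylate-binding protein of the interferon gamma response, was lower in *G-Smo* tumors. It lay at 6.54, 6.76 and 7.00 in *G-Smo* tumors, against 6.91, 7.34 and 7.44 in *M-Smo* tumors, a difference of -0.50 ± 0.11 (SE, adjusted p = 0.0321, exact permutation p = 0.00433). The ranges overlapped by 1 tumor of each genotype. The call was lost with the sex-linked score (adjusted p = 0.109) and when any one of 8 tumors was left out: *G-Smo* replicates 2, 3, 4 and 6 and *M-Smo* replicates 3, 4, 5 and 6 (adjusted p = 0.0561 to 0.0724).

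No ligand passed, of 5 measured, but 3 of them (*Ifnb1*, *Ifng* and *Ifne*) were dim, where a difference in RNA can be understated. None of 9 receptor and kinase genes passed. The receptor genes *Ifnar1* and *Ifngr1* differed by 0.02 ± 0.04 and -0.03 ± 0.06 (SE, adjusted p = 0.82 and 0.845). None of 13 signaling and sensor genes, 12 further class I genes or 12 further class II genes passed either. In all, 18 of the 81 genes (22.2%, against 18.9% of all probe sets) had an unadjusted p under 0.05, 11 with higher and 7 with lower means in *G-Smo* tumors. The median difference of the 81 genes was -0.04.

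Among the *M-Smo* tumors 1 was often above the rest. *M-Smo* replicate 3 was the highest of its 6 in 16 of the 35 genes (45.7%), where it was the highest in 20.9% of all probe sets. It was the highest in 8 of 15 interferon-induced genes (*Ifit1*, *Ifit3*, *Isg15*, *Oasl2*, *Oas2*, *Mx1*, *Usp18* and *Gbp3*), in 5 of 8 class I genes (*Psmb8*, *Tap1*, *Tap2*, *H2-K1* and *Nlrc5*), in *Ddx58*, and in *H2-Aa* and *H2-Eb1* of class II. In 13 genes it was the highest of all 12 tumors, against 13.2% of all probe sets.

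The size of the step varied among single genes. In *Usp18*, *M-Smo* replicate 3 had a log2 level of 6.23, and the remaining *M-Smo* tumors lay at 5.19 to 5.91. In *Tap2* it had 6.42, against 5.60 to 5.91, and in *Tap1* 7.48, against 6.88 to 7.15. In *Ifit1* it had 6.33, against 5.76 to 6.07. The step was small in others of the 16, such as *Isg15* (5.17, against 4.80 to 5.14) and *Ddx58* (7.30, against 6.93 to 7.25). The same tumor was in none of the 5 transcription factors the highest of its genotype, and in *Irf9* and *Stat2* it was the lowest. Its median deviation from the *M-Smo* mean was 0.18 over the interferon-induced genes and 0.23 over the class I genes, against 0.00 over all probe sets. Among genes with a promoter and a probe set it was the highest *M-Smo* tumor in 5 of 10 with an ISRE core and in 6 of 16 without one.

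Leaving this tumor out moved the median difference of the interferon-induced genes to -0.04, against -0.11 with it, and left it at -0.06 in class I, against -0.07 with it. The class I median was -0.12 without *M-Smo* replicate 1. *M-Smo* replicate 3 was the highest of its genotype in 5 of 10 lymphocyte markers (50%, median deviation 0.13), in 3 of 8 fibroblast and meningeal markers (37.5%, median deviation 0.15), in 3 of 7 border-associated macrophage markers and in 1 of 14 microglia markers. The part of RNA of these cells in its levels was not tested. It was also the highest in 7 of 30 further interferon-induced genes of the pathway list (23.3%), close to the 20.9% of all probe sets. The opposite end was held by *M-Smo* replicate 1, the lowest of its 6 in 7 of 15 interferon-induced genes (46.7%, against 21.4% of all probe sets) and in 8 of 14 microglia markers, and by *M-Smo* replicate 2, the lowest in 6 of the 15 (40%, against 15.4%). Yet *M-Smo* replicate 1 was, as often as replicate 3, the highest in fibroblast and meningeal markers (3 of 8, median deviation 0.10). It was also the highest in 2 of 7 border-associated macrophage markers. *M-Smo* replicate 1 had a high level of *Xist* (12.57), and the part of sex in its place was not tested.

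In *G-Smo* tumors, replicate 1 was the highest of its 6 in 3 of 5 class II genes and in 5 of 15 interferon-induced genes (33.3%, against 17.3% of all probe sets), and also in 10 of 14 microglia markers. *G-Smo* replicate 6 was the lowest in 5 of 8 class I genes (62.5%, against 16.9% of all probe sets). It was also the lowest in 11 of 14 microglia markers and in 6 of 8 fibroblast and meningeal markers (75%, median deviation -0.27). This tumor had a low level of *Xist* (5.96, against 12.61 to 12.79 in the other *G-Smo* tumors). The part of sex, or of microglial, fibroblast and meningeal RNA, in these orders was not tested.

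**Figure D4:**
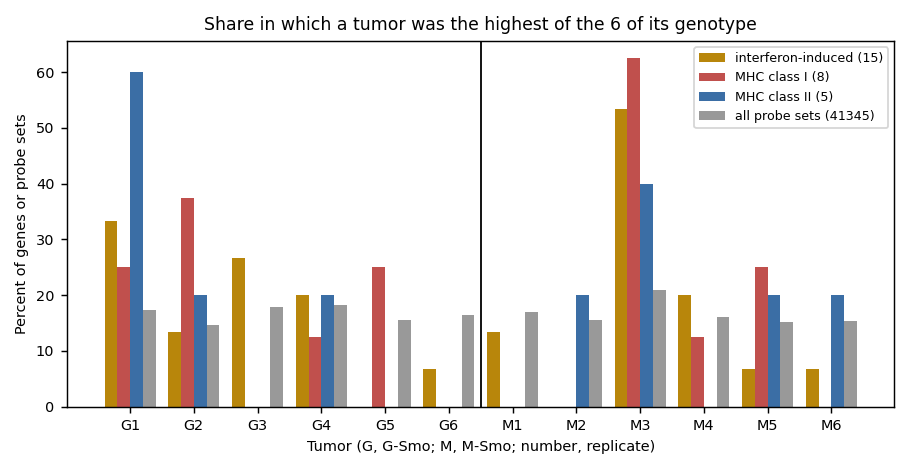
Percent of genes (interferon-induced, MHC class I, MHC class II, with the number of genes in the legend) and of all 41345 probe sets in which each tumor was the highest of the 6 of its genotype, *G-Smo* left and *M-Smo* right. *M-Smo* replicate 3 reaches 53.3% of the interferon-induced and 62.5% of the class I genes, against 20.9% of all probe sets.

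**Figure D5:**
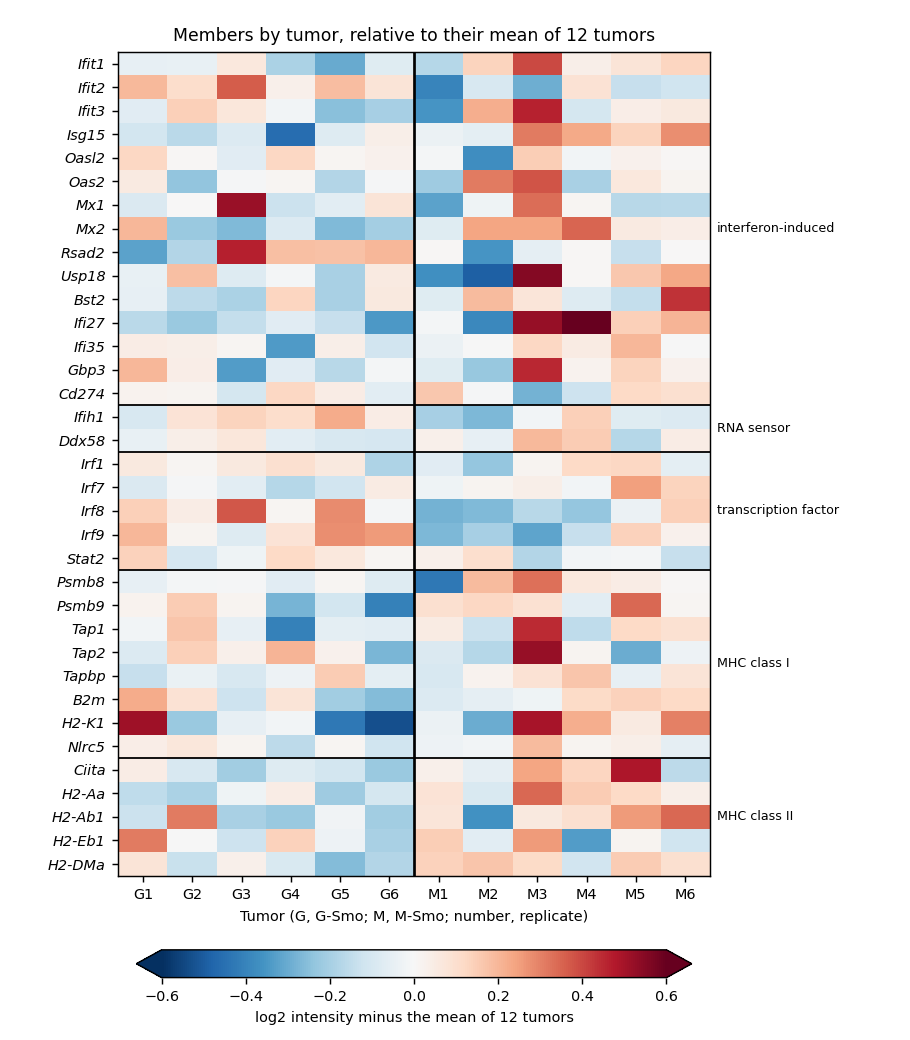
Log2 intensity of the 35 measured genes in each tumor, relative to the gene's mean of 12 tumors (color scale, red above and blue below), *G-Smo* left and *M-Smo* right, with classes separated by lines. The column of *M-Smo* replicate 3 is red in most interferon-induced and class I rows and bluest in *Irf9*, *Ifit2*, *Cd274*, *Stat2* and *Irf8*.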

How the data were processed

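Total RNA of 6 *G-Smo* and 6 *M-Smo* tumors was measured on Affymetrix Mouse Gene 2.1 ST arrays. The authors deposited 1 log2 intensity for each probe set and array, from RMA in the Partek Genomics Suite (versions not given in the sources used here). RMA brings arrays to a common distribution, so that a change shared by most genes would not be seen. Genotypes were compared with limma 3.58.1 (R 4.3.3), two-sided and unfiltered, and p-values were adjusted by Benjamini-Hochberg across the 41345 probe sets. Single genes were also compared by the exact permutation test over 924 assignments (smallest p 0.00216). Gene names came from the platform annotation, which gives 1 symbol to 23521 probe sets, and list genes under older names were found through RefSeq. The limma fit, but not the other steps, was tested on simulated arrays with known changes. Arrays have no depth, and their number limits the precision. The labels name separate tumors but not litters or sex, and any 2 arrays of a genotype correlated at 0.984 to 0.992.

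Genes and lists were chosen with earlier results of these data known. Lowest, median and highest values are given for the 2 genes of each class with the smallest unadjusted p and for *Stat2*, *Irf7*, *Isg15*, *Ifit1*, *B2m*, *H2-K1*, *Nlrc5*, *Ciita* and *H2-Aa*, for pathway genes past the threshold, and for *Mx2* and *Ifi27*. Figures were drawn in Python 3.11.15 with matplotlib 3.10.9.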

Additional observations from a re-analysis of the deposited data

Results flagged for a closer look

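In 84 groups of 6 tumors checked (35 genes, 5 class means, *Gbp7* and *Mndal*, each in both genotypes), 7 held a tumor set apart from the other 5 by more than Dixon's limit, where chance gives about 5 in 100. The 7 include *Mndal* in *M-Smo* tumors, a gene added after its values were seen. Whether the flags exceed chance was not tested. *Oasl2* was 6.16 in *M-Smo* replicate 2, and 6.52 to 6.68 in its 5 companions. *Mx1* was 4.50 in *G-Smo* replicate 3, against 3.85 to 4.06 in the others. *Irf1* was 5.80 in *G-Smo* replicate 6, against 5.99 to 6.08, and *Tapbp* was 7.97 in *G-Smo* replicate 5, against 7.68 to 7.78. *Nlrc5* was 5.35 in *M-Smo* replicate 3, against 5.10 to 5.19, and *H2-DMa* was 6.64 in *M-Smo* replicate 4, against 6.85 to 6.92.

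*Mndal*, an interferon-inducible gene of the Ifi200 family, was checked after its values were seen. In *G-Smo* tumors it was 4.35 and 4.02 in replicates 1 and 2, and 6.99, 6.88, 7.12 and 7.01 in replicates 3 to 6. It was 6.70 in *M-Smo* replicate 3, and 3.78 to 4.16 in the remaining *M-Smo* tumors. The 12 values thus fell into a low range of 7 tumors and a high range of 5, neither of them made up of 1 genotype, and the genotype difference had an adjusted p of 0.204.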

How the results depend on the processing

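The count of genes past the threshold, 0 of 35, was 1 (*Ifit2*) once probe sets dimmer than the 40th percentile were left out, 1 (*Ifit2*) with only probe sets of 1 gene symbol and 1 (*Ifit2*) at an adjusted p of 0.1, and it ran from 0 to 1 as each tumor was left out. It stayed at 0 in the other alternatives: median centring, quantile normalization, limma's trend and robust settings, array weights, the mean of a gene's probe sets, the methods' test, the sex-linked score, the replicate block and a 2-fold limit. The count at an unadjusted p under 0.05, 11, was 3 with the sex-linked score and 7 to 12 as each tumor was left out. The count of pathway genes past the threshold, 1, was 2 with median centring, 2 with quantile normalization, 2 without the dim probe sets, 2 with only probe sets of 1 symbol, 2 with the methods' test, 0 with the sex-linked score and 0 to 1 as each tumor was left out. The sets of 2 held *Gbp7* with *Trim25*, or with *Irf2* in the methods' test. Over all probe sets 1057 passed, against 1881 with the 40th percentile filter, 420 with the sex-linked score and 367 to 942 as each tumor was left out. The filter tests fewer probe sets, and otherwise the cause was not tested.

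The sign of 7 estimates, none past the threshold, changed in at least 1 alternative. With the sex-linked score *Usp18* was 0.03, *Cd274* -0.07, *Psmb8* 0.04, *Tap2* -0.04 and *H2-Eb1* -0.04. *Ifi35* was 0.08 with the mean of its 2 probe sets, and *Cd274* was -0.00 with median centring and -0.01 with array weights. As each tumor was left out, *Usp18* ran from -0.13 to 0.08, *Cd274* from -0.04 to 0.04, *Irf1* from -0.01 to 0.07, *Tap2* from -0.04 to 0.12 and *H2-Eb1* from -0.03 to 0.09.

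The replicate numbers 1 to 6 are shared by the genotypes. Deviations of same-numbered tumors from their genotype mean correlated at -0.138 to 0.114, and 1 of 6 tumors correlated best with its own number, so the numbers were not taken as pairs. With the replicate block 0 of the 35 genes and 0 pathway genes passed, 12 of the 35 had an unadjusted p under 0.05 (34.3%, against 17.1% of all probe sets), and 113 probe sets passed in all. Among the markers, *Mrc1*, *Pf4*, *Cdh5*, *Lum*, *Col1a1*, *Col1a2*, *Slc13a4* and *Hhip* lost their calls with it (adjusted p = 0.0655 to 0.116).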
